A study of Mus musculus with 16 samples.

Results

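The genes described here mark the basal layer of the mammary epithelium. They are 10 of the 55487 gene identifiers in the count table, matched by gene symbol. Krt5, Krt14 and Krt17 encode basal keratins, and Trp63 encodes the transcription factor p63. Acta2, Myh11, Cnn1, Mylk and Tagln encode proteins of the smooth muscle contractile apparatus, and Oxtr encodes the oxytocin receptor. All 10 were among the 24252 genes that passed the filter on low counts.

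The 16 RNA-seq samples were mammary organoids of mice, multicellular structures kept in culture, here in Rspo1-Noggin conditioned medium with added epidermal growth factor (EGF). There were 3 WT samples, 4 with mutant PIK3CA, 4 with mutant HER2 and 5 double mutants that carry both, and the series title names the alleles HER2V777L and PIK3CAH1047R. The labelled tissue source is normal breast for WT and tumor breast for each mutant genotype, so genotype and source cannot be told apart in any comparison with WT. The labels do not give the strain, age, promoter or cell type that carried the alleles, nor whether replicates came from separate mice or cultures, so p-values measure the spread between these samples.

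The mammary duct has an inner layer of luminal cells and an outer basal layer of myoepithelial cells. Keratins form filaments as pairs of a type I and a type II chain, and Krt14 with Krt5 is the classic basal pair. p63 maintains basal identity and activates basal keratin genes. Myoepithelial cells also carry smooth muscle proteins, and they contract when oxytocin, acting through its receptor, raises calcium and the myosin light chain kinase Mylk phosphorylates the myosin light chain.

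Total counts ranged from 45545182 to 64168308 per sample. Levels are given as CPM, the counts of a gene scaled to the size of its library with TMM factors. Erbb2, the mouse HER2 gene, was at 2696 to 4632 CPM in HER2 mutant and 1499 to 2751 CPM in double mutant samples, against 145 to 188 CPM in all WT and PIK3CA mutant samples, which matches the HER2 labels. Pik3ca was at 91.6 to 110.5 CPM in PIK3CA mutant and 109.5 to 122 CPM in double mutant samples. It was at 75.9 to 85.7 CPM in WT and 61.4 to 74.1 CPM in HER2 mutant samples, so its levels also followed the PIK3CA labels. Gene counts do not show which Pik3ca allele was read. HER2 mutant replicate 1 stood apart from the other 3 HER2 mutant samples in several of the genes below, and calls that change when it is left out are given both ways. Changes are log2 fold changes with a standard error (SE). Unless DESeq2 or limma is named, each adjusted p comes from edgeR's quasi-likelihood test, with Benjamini-Hochberg adjustment over the genes of that fit (24252 with all samples) and a threshold of 0.05.

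The basal keratins and Trp63 were abundant, and most of the contractile genes were not. Averaged over the 16 samples and divided by exon length, the level was 141 CPM per kb for Krt14, 91.3 for Krt5, 42.6 for Acta2 and 33.3 for Krt17. It was 16.2 CPM per kb for Trp63 and 14.3 for Oxtr. Cnn1 and Mylk followed at 1.69 and 1.66 CPM per kb. Tagln and Myh11 were lowest at 0.478 and 0.451 CPM per kb. Tagln, which encodes the actin-binding protein transgelin, had 18 to 82 counts per sample, and 33.2% of tested genes had a lower mean CPM. The basal part of the label was therefore backed by high levels in these cultures, while of the smooth muscle genes only Acta2 was high per length. In bulk samples, fewer cells of a type and less RNA per cell cannot be told apart.

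**Figure D1:**
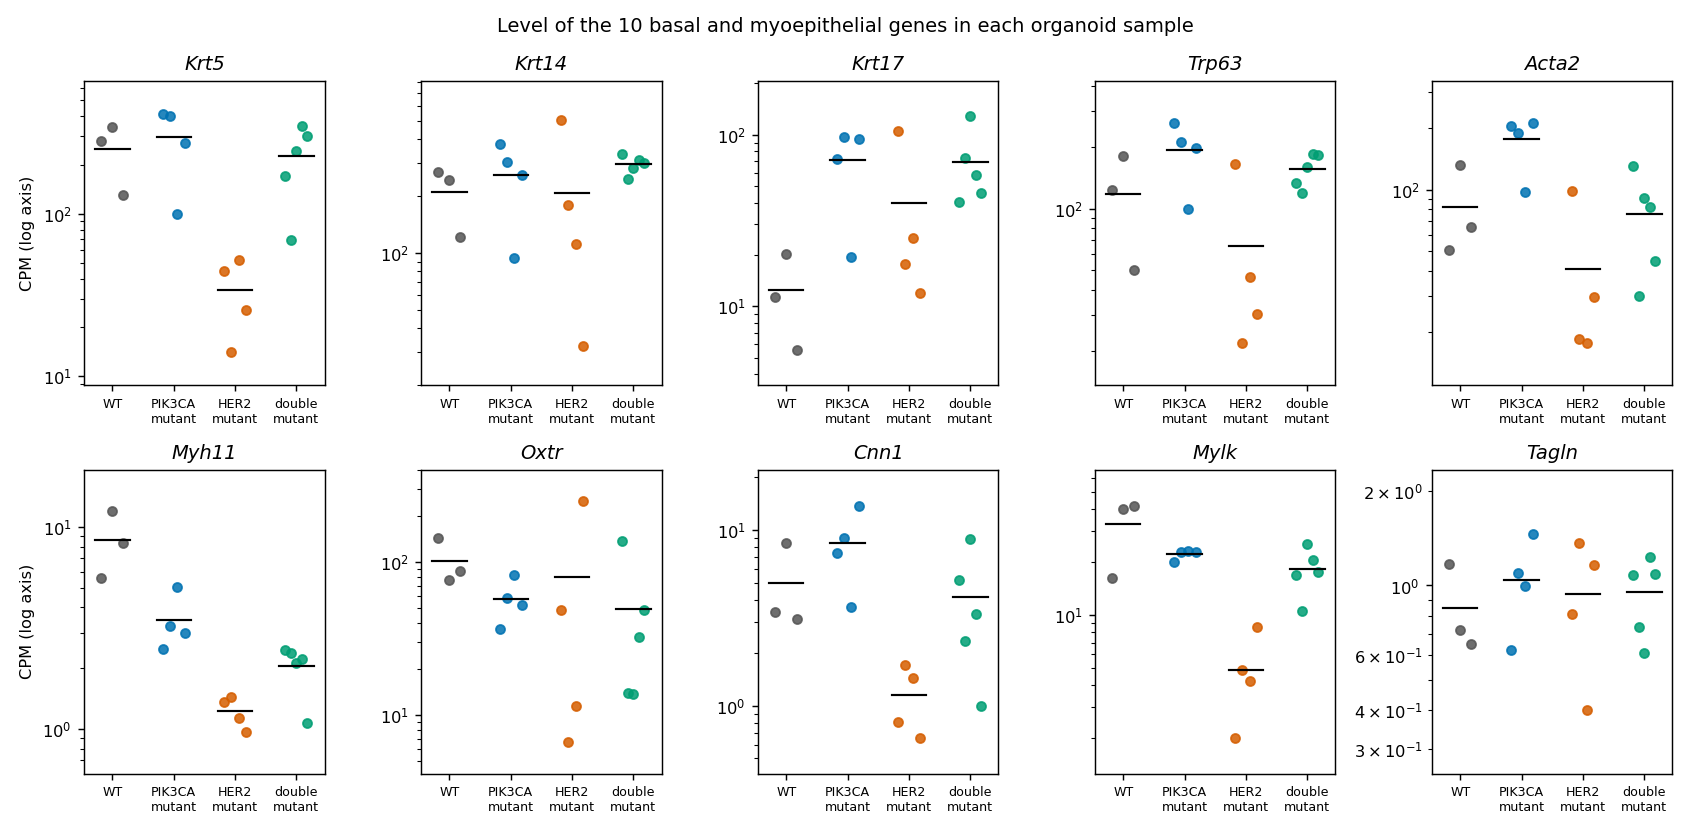
Level of each gene in CPM (log axis, a different range in each panel) in the 3 WT, 4 PIK3CA mutant, 4 HER2 mutant and 5 double mutant samples. Points are samples and lines are group means. The 4 HER2 mutant samples lie below all WT samples for Krt5, Myh11, Cnn1 and Mylk, and their spread is wide for Krt14 and Oxtr.

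Krt5, the type II chain of the basal pair (ENSMUSG00000061527, chromosome 15, 101707070 to 101712898 in GRCm38), was low in HER2 mutant organoids. Its level was 279.7, 345 and 131 CPM in the WT samples and 412, 399, 99.6 and 274 CPM in the PIK3CA mutant samples. In the HER2 mutant samples it was 44.8, 14.1, 52.0 and 25.6 CPM, and in the double mutant samples 171, 69.0, 245, 346 and 303 CPM. Every HER2 mutant sample was below every sample of the other genotypes, while the other 3 genotypes overlapped. The log2 fold change of Krt5 in HER2 mutants was -2.89 against WT (SE 0.57, adjusted p 0.00592) and -3.12 against PIK3CA mutants (SE 0.555, adjusted p 0.00673), a 7.39-fold and an 8.68-fold lower level. In double mutants Krt5 was 2.73 higher than in HER2 mutants on the log2 scale (SE 0.533, adjusted p 0.0152). This last call was lost when the other genotypes were left out of the fit (adjusted p 0.0672), which then called 13 genes higher and 24 lower of 21966. Neither PIK3CA mutants (0.23, SE 0.554, adjusted p 0.888) nor double mutants (-0.15, SE 0.526, adjusted p 0.887) passed the threshold for Krt5 against WT.

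Krt14, the type I partner of Krt5 (ENSMUSG00000045545, chromosome 11, 100203162 to 100207548), passed the threshold in none of the comparisons. It was at 267, 243 and 122 CPM in WT, 375, 303, 93.9 and 259.8 CPM in PIK3CA mutant, and 336, 245, 279.6, 312 and 299 CPM in double mutant samples. The HER2 mutant samples had 507, 179, 111 and 32.0 CPM, a 15.9-fold span that held both the highest and the lowest value of the 16 samples. The log2 fold change in HER2 mutants against WT was -0.03 (SE 0.616, adjusted p 0.985), and -0.98 without HER2 mutant replicate 1 (SE 0.512, adjusted p 0.247).

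The 2 partner keratins parted in HER2 mutant organoids, a pattern chosen for description after the values were seen. Per exon length, the ratio of Krt5 to Krt14 was 0.837 to 1.13 in WT and 0.844 to 1.05 in PIK3CA mutant samples. It was 0.0707, 0.0633, 0.374 and 0.64 in HER2 mutant replicates 1 to 4, all below the WT and PIK3CA mutant ranges. Double mutants spread from 0.226 in replicate 2 and 0.408 in replicate 1 to 0.888 in replicate 4, and so overlapped with both. HER2 mutant replicate 1, with the most Krt14 of any sample, had 44.8 CPM of Krt5.

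**Figure D2:**
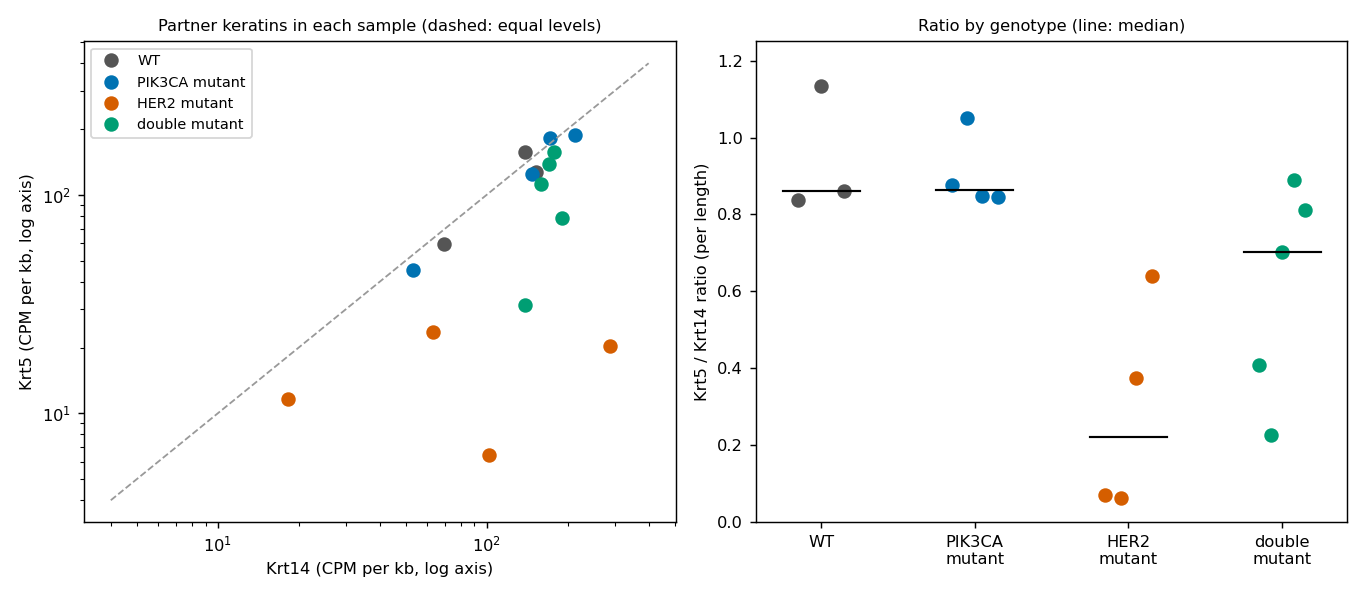
Left, Krt5 against Krt14 in CPM per kb of exon (both log axes), 1 point per sample, with a dashed line of equal levels. Right, the ratio of Krt5 to Krt14 per length by genotype, with the median as a line; the HER2 mutant points lie at 0.0633 to 0.64, under all WT and PIK3CA mutant points.

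Krt17, a type I keratin of basal and stressed epithelium (ENSMUSG00000035557, chromosome 11, 100256217 to 100261029), was higher than WT in double mutants. WT samples had 11.3, 20.2 and 5.54 CPM and double mutant samples 40.6, 73.4, 129, 58.1 and 45.5 CPM, with no overlap (log2 fold change 2.49, SE 0.741, adjusted p 0.0391). This call was lost without WT replicate 1 or 3 or without double mutant replicate 2, 3 or 4, with an adjusted p of up to 0.181. PIK3CA mutant samples had 72.4, 97.2, 19.3 and 95.2 CPM, and replicate 3 fell within the WT range (log2 fold change 2.52, SE 0.758, adjusted p 0.0746). Without that replicate the adjusted p was 0.0481, and it was 0.00468 with DESeq2, 0.0426 with no filter on low counts and 0.023 with the HER2 and double mutants left out of the fit. HER2 mutant samples had 105, 17.5, 25.1 and 12 CPM, with replicate 1 far above the others (log2 fold change against WT 1.70, SE 0.731, adjusted p 0.156). Without that replicate the estimate was 0.56 (SE 0.571, adjusted p 0.574). Krt14 and Krt17 are similar in sequence, and how reads shared between keratin genes were counted is not given in the sources used here.

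Trp63 (ENSMUSG00000022510, chromosome 16, 25683763 to 25892102) was low in 3 of the 4 HER2 mutant samples. It was at 124, 182 and 50.2 CPM in WT, 264, 213, 99.6 and 198 CPM in PIK3CA mutant, and 134, 119, 159.9, 185 and 184 CPM in double mutant samples. In HER2 mutants, replicate 1 had 165 CPM, and the others had 21.8, 46.3 and 30.4 CPM, below every sample of the other genotypes. With all samples, none of the comparisons of Trp63 passed the threshold, and the estimate in HER2 mutants was -0.85 against WT (SE 0.56, adjusted p 0.369) and -1.55 against PIK3CA mutants (SE 0.534, adjusted p 0.113). The latter passed with DESeq2 (adjusted p 0.0406) and with limma on the normalized values (0.0425). Without HER2 mutant replicate 1, the log2 fold change in HER2 mutants was -1.85 against WT (adjusted p 0.0132) and -2.56 against PIK3CA mutants (adjusted p 0.00391), and double mutants were 2.25 above HER2 mutants (adjusted p 0.0101). Trp63 has several promoters, and gene counts do not show which p63 isoforms were made.

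Among the contractile genes, Mylk, the kinase that switches on smooth muscle myosin (ENSMUSG00000022836, chromosome 16, 34745210 to 35002420), showed the clearest split. It was at 16.4, 40.2 and 42.0 CPM in WT, and the PIK3CA mutant samples lay close together at 20.1, 23.0, 23.1 and 23.0 CPM. HER2 mutant samples had 2.02, 4.90, 4.23 and 8.56 CPM, below all other samples, and double mutant samples had 17.0, 10.6, 25.6, 20.6 and 17.6 CPM. The log2 fold change in HER2 mutants was -2.74 against WT (SE 0.405, adjusted p 0.00118) and -2.18 against PIK3CA mutants (SE 0.382, adjusted p 0.00603). In double mutants it was 1.89 against HER2 mutants (SE 0.367, adjusted p 0.0149), which did not pass once WT and PIK3CA mutants were left out of the fit (adjusted p 0.0854). In double mutants against WT, the estimate was -0.85 (SE 0.369, adjusted p 0.151). Mylk shares exon sequence with 2 antisense genes on the opposite strand, and their reads cannot be told apart from those of Mylk where counting ignored strand.

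Myh11, the smooth muscle myosin heavy chain (ENSMUSG00000018830, chromosome 16, 14194535 to 14291372), was lower than WT in each mutant genotype. WT samples had 5.58, 12 and 8.29 CPM, and every one of the 13 mutant samples was lower. PIK3CA mutant samples had 2.5, 3.24, 5.07 and 2.98 CPM, HER2 mutant samples 1.36, 1.45, 1.13 and 0.962 CPM, and double mutant samples 2.46, 2.37, 2.12, 2.22 and 1.07 CPM. Against WT, the PIK3CA mutants had a log2 fold change of -1.32 (SE 0.324, adjusted p 0.0274). It was -2.81 for HER2 mutants (SE 0.337, adjusted p 0.000344) and -2.07 for double mutants (SE 0.307, adjusted p 0.000571). These changes share the same WT samples. The call in PIK3CA mutants was lost without WT replicate 2 or 3 or without PIK3CA mutant replicate 1, 2 or 4, with an adjusted p of up to 0.136. HER2 mutants were also below PIK3CA mutants (-1.49, SE 0.313, adjusted p 0.0151), a call lost without PIK3CA mutant replicate 3 (adjusted p 0.0554).

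Myh11 is also made by vascular smooth muscle, and the markers of such cells did not all move one way. Pdgfrb, a receptor of pericytes and fibroblasts, averaged 65.7 CPM in WT, 6.14 in PIK3CA mutants, 6.35 in HER2 mutants and 1.52 CPM in double mutants, and Rgs5, a pericyte gene, averaged 3.94 CPM in WT and 0.429, 0.479 and 0.201 CPM in the same order. Notch3, a receptor of vascular smooth muscle and pericytes, averaged 183 CPM in WT and 457, 225 and 305 CPM, and Kcnj8, a potassium channel subunit of pericytes, averaged 3.36 CPM in WT and 0.675, 15.9 and 0.555 CPM. The HER2 mutant mean of Kcnj8 came from 15.6, 2.12, 3.69 and 42.3 CPM, where WT samples had 2.60, 3.10 and 4.37 CPM. The summed level of 13 fibroblast genes was 1134 to 4145 CPM in WT, 628 to 1940 in PIK3CA mutant, 149 to 1347 in HER2 mutant and 648 to 2086 CPM in double mutant samples. The summed level of 9 pericyte and vascular smooth muscle genes was 250 to 329.6 CPM in WT, 437 to 532 in PIK3CA mutant, 245 to 371 in HER2 mutant and 232 to 429 CPM in double mutant samples, with none of its genes at 0 in every sample. Notch3 was the largest part of this sum in each genotype, so the sum does not show how the other genes of the list moved. The part of such cells in the Myh11 values was not tested.

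Cnn1, which encodes calponin, an actin-binding regulator of smooth muscle (ENSMUSG00000001349, chromosome 9, 22099216 to 22109630), was low in HER2 mutants. It was at 3.41, 8.42 and 3.10 CPM in WT, 7.41, 8.99, 3.65 and 13.8 CPM in PIK3CA mutant, 0.811, 1.72, 1.45 and 0.655 CPM in HER2 mutant, and 5.18, 2.33, 8.87, 3.33 and 0.992 CPM in double mutant samples. HER2 mutant samples did not overlap with WT or PIK3CA mutant samples, and double mutant replicate 5 fell among them. The log2 fold change in HER2 mutants was -2.87 against PIK3CA mutants (SE 0.609, adjusted p 0.0161) and -2.10 against WT (SE 0.621, adjusted p 0.0418). The call against WT was lost without any 1 WT replicate or without HER2 mutant replicate 1, 3 or 4, where the adjusted p reached 0.183. It was also lost with upper-quartile scaling (0.0507) and when the fit held WT and HER2 mutants alone (0.0686), where 219 genes of 22823 were called higher and 322 lower. Between double and HER2 mutants Cnn1 had an estimate of 1.84 (SE 0.571, adjusted p 0.0955), which passed with DESeq2 (0.0138).

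Acta2, the smooth muscle actin used most often to stain myoepithelium (ENSMUSG00000035783, chromosome 19, 34241090 to 34255590), was highest in PIK3CA mutants. It was at 50.6, 132 and 65.3 CPM in WT, 205, 189, 98.0 and 213 CPM in PIK3CA mutant, and 130.3, 30.3, 90.9, 82.1 and 44.6 CPM in double mutant samples. HER2 mutant replicate 1 had 98.1 CPM and replicates 2 to 4 had 18.5, 17.7 and 29.8 CPM. Between HER2 and PIK3CA mutants the log2 fold change was -2.10 (SE 0.561, adjusted p 0.0454), although replicate 1 and PIK3CA mutant replicate 3 overlapped. Leaving out a replicate of either genotype removed this call in 7 of 8 fits (adjusted p of up to 0.105), and the exception was the fit without HER2 mutant replicate 1 (-3.004, adjusted p 0.0042). It was lost as well when the fit held these genotypes alone (0.0939). Against WT, HER2 mutants had an estimate of -1.01 (SE 0.579, adjusted p 0.291) with all samples and -1.91 without replicate 1 (SE 0.491, adjusted p 0.0244). PIK3CA mutants did not pass against WT (1.09, SE 0.599, adjusted p 0.384).

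Oxtr (ENSMUSG00000049112, chromosome 6, 112473683 to 112489943), through which oxytocin triggers contraction, had the widest span of the 10 genes within HER2 and within double mutants and passed in none of the comparisons. WT samples had 143, 76.1 and 87.6 CPM and PIK3CA mutant samples 36.5, 58.4, 82.6 and 52.6 CPM. HER2 mutant samples had 48.9, 6.63, 11.4 and 250.1 CPM, a 37.7-fold span, and double mutant samples had 136, 13.9, 13.8, 32.4 and 48.7 CPM. The sample with the most Oxtr, HER2 mutant replicate 4, had the least Krt14 and the least Cnn1. In HER2 mutants against WT the log2 fold change was -0.37 (SE 0.956, adjusted p 0.85), and it moved to -2.19 when that replicate was left out.

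Tagln (ENSMUSG00000032085, chromosome 9, 45929619 to 45936058) was near 1 CPM in every genotype. It ranged from 0.651 to 1.17 CPM in WT, 0.62 to 1.46 in PIK3CA mutant, 0.401 to 1.37 in HER2 mutant and 0.609 to 1.24 CPM in double mutant samples, and its fold changes lay between -0.28 and 0.30 on the log2 scale in all 7 comparisons. Its exons overlap those of Pcsk7 on the opposite strand, and Pcsk7 was at 43.9 to 81.8 CPM.

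**Figure D3:**
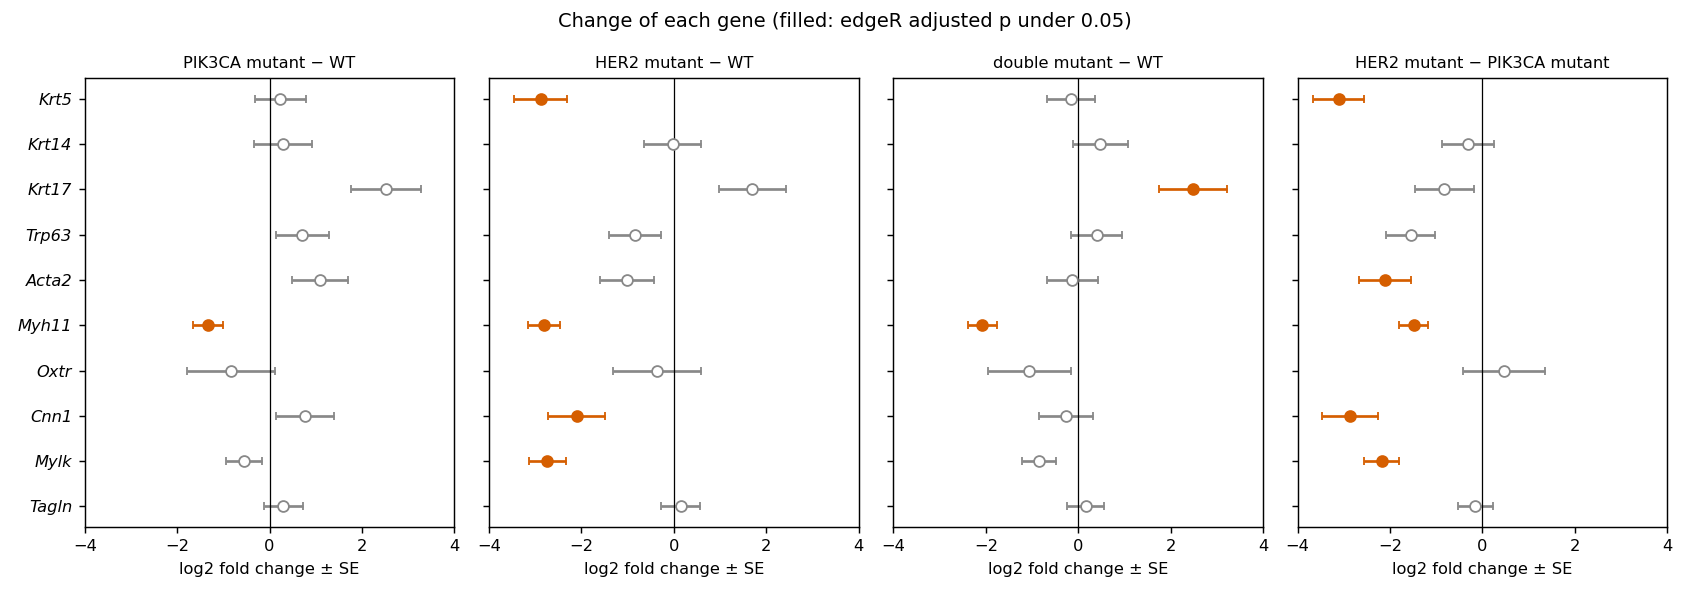
Log2 fold change with its SE for each gene in the comparisons of each mutant genotype with WT and of HER2 with PIK3CA mutants. Filled points have an adjusted p under 0.05; 4 genes are filled and lower in HER2 mutants against WT and 5 against PIK3CA mutants.

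Counted over the 10 genes, the calls were mainly decreases in HER2 mutants. Against WT, 4 of the 10 genes were lower in HER2 mutants (Krt5, Myh11, Cnn1 and Mylk) and 0 higher, where 5.63% of all tested genes were lower and 4.75% higher. Their median log2 fold change was -0.93, against 0.03 over all tested genes. Without HER2 mutant replicate 1, 5 were lower, with Trp63 and Acta2 added and Cnn1 lost (adjusted p 0.086), where 5.44% of all genes were lower. Against PIK3CA mutants, 5 were lower in HER2 mutants (the same genes and Acta2) and 0 higher, where 2.2% of all genes were lower and 2.21% higher, and the median was -1.52 against 0.07 over all genes. Without HER2 mutant replicate 1 this count was 6 lower.

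In PIK3CA mutants against WT, 1 gene (Myh11) was lower and 0 higher, where 3.03% and 1.49% of all genes were. Double mutants against WT had 1 lower (Myh11) and 1 higher (Krt17), where 6.72% and 5.03% of all genes were. These 2 comparisons and that of HER2 mutants share the WT samples. Double mutants against HER2 mutants had 2 higher (Krt5 and Mylk) and 0 lower, where 1.03% and 1.47% of all genes were, and 0 when the fit held these genotypes alone. That fit called only 13 genes higher and 24 lower of 21966. With all genotypes fitted but without HER2 mutant replicate 1, 3 of the 10 genes were higher. Double and PIK3CA mutants differed in 0 of the 10 genes by edgeR, DESeq2 or limma, with 2 at an unadjusted edgeR p under 0.05, where 0.363% of all genes were lower and 0.309% higher.

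The interaction is the double-mutant change from WT minus the PIK3CA and HER2 mutant changes from WT, on the log2 scale. WT enters it, so genotype and labelled tissue source cannot be told apart here either. The interaction was positive for Mylk (2.45, SE 0.53, adjusted p 0.039) and Myh11 (2.06, SE 0.441, adjusted p 0.0369) and negative for 0 of the 10 genes, where 0.515% of all genes were positive and 0.544% negative. Krt5 had an interaction of 2.502 (SE 0.742, adjusted p 0.127), which passed with DESeq2 (0.0246). For Mylk, the single-mutant changes were -0.56 and -2.74, and that of the double mutant was -0.85. Leaving out a replicate removed the call in 11 of 16 fits for Mylk and in 9 of 16 for Myh11, with an adjusted p of up to 0.137 and 0.102. These included fits without WT replicate 2 or 3, PIK3CA mutant replicate 1, 2 or 4, HER2 mutant replicate 3, and double mutant replicate 1 or 4 for both genes, with HER2 mutant replicate 4 for Myh11 and PIK3CA mutant replicate 3 and double mutant replicates 3 and 5 for Mylk.

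The order of mean levels put HER2 mutants last for 7 of the 10 genes (Krt5, Krt14, Trp63, Acta2, Myh11, Cnn1 and Mylk). PIK3CA mutants were first for Krt5, Krt17, Trp63, Acta2, Cnn1 and Tagln, WT for Myh11, Oxtr and Mylk, and double mutants for Krt14. Neighbours in these orders differed past the threshold only for Krt5 and Mylk, between double and HER2 mutants, and for Myh11, between WT and PIK3CA mutants.

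The wider contractile apparatus was given by a list of 19 other genes, all tested. In HER2 mutants against WT, 1 was higher and 3 lower (2 without HER2 mutant replicate 1), where 4.75% and 5.63% of all genes were, with a median log2 fold change of -0.04 against 0.03 over all genes. Against PIK3CA mutants, 1 was higher and 2 lower, where 2.21% and 2.2% of all genes were, with a median of -0.10. Myl9, the regulatory light chain that Mylk phosphorylates, was at 4.75, 1.43, 10.1 and 9.87 CPM in HER2 mutant samples and at 45.0, 64.2, 20.4 and 41.1 CPM in PIK3CA mutant samples, with no overlap (log2 fold change -2.71, SE 0.541, adjusted p 0.0117). Smtn, which encodes the actin-binding smoothelin, was lower than in PIK3CA mutants (-1.01, SE 0.198, adjusted p 0.0107) and than in WT (-1.26, SE 0.211, adjusted p 0.00236). Cald1, which encodes caldesmon, an actin-binding brake on contraction, moved the other way and was higher in HER2 mutants than in WT (1.31, SE 0.153, adjusted p 0.000282) and than in PIK3CA mutants (0.64, SE 0.137, adjusted p 0.0174). Of these calls, that of Cald1 between HER2 and PIK3CA mutants was lost without PIK3CA mutant replicate 1 or 3 (adjusted p up to 0.0627) and when these genotypes were fitted alone (0.0591). Cald1 was also above WT in PIK3CA mutants (0.67, SE 0.15, adjusted p 0.0161) and in double mutants (0.77, adjusted p 0.0027). The call in PIK3CA mutants was lost without WT replicate 1 or 3 or PIK3CA mutant replicate 4 (adjusted p up to 0.0981). 

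Des and Synpo2, which encode the muscle filament protein desmin and an actin-bundling protein, were lower than WT in all mutant genotypes. Synpo2 had a log2 fold change of -3.09 in PIK3CA mutants (adjusted p 0.00577), -3.77 in HER2 mutants (adjusted p 0.002) and -3.27 in double mutants (adjusted p 0.0012), and WT samples had 2.73, 1.04 and 11.5 CPM. Des averaged 1.79 CPM in WT and 0.047, 0.182 and 0.0711 CPM in the mutants (adjusted p 0.0138, 0.047 and 0.00654). Without WT replicate 3, the WT sample with the most of both, Synpo2 did not pass in PIK3CA mutants (adjusted p 0.0851) and Des passed in none of the genotypes. Des was also lost in PIK3CA mutants without replicate 1 or 2 (adjusted p up to 0.117), and in HER2 mutants without WT replicate 1 or HER2 mutant replicate 1, 3 or 4 (adjusted p up to 0.294) and with upper-quartile factors (0.0524). When HER2 mutants and WT were fitted alone, neither Synpo2 (0.0567) nor Des (0.184) passed. Lmod1, an actin nucleator of smooth muscle, reached 63.1 CPM in HER2 mutant replicate 1 and was at 6.59 to 16.3 CPM in the other HER2 mutants. It was lower in double mutants than in WT (-1.96, SE 0.559, adjusted p 0.0322) and than in HER2 mutants (-2.38, SE 0.535, adjusted p 0.0306), the latter with overlapping samples. Between double and HER2 mutants it was -1.18 without HER2 mutant replicate 1 (SE 0.339, adjusted p 0.0762), and the call was lost as well without double mutant replicate 2, 3, 4 or 5, with limma (0.0721) and with these genotypes fitted alone (0.178). Against WT the call was lost without WT replicate 1 or 3 or double mutant replicate 2, 3, 4 or 5 (adjusted p up to 0.15). Over the list, 1 was higher and 2 lower in PIK3CA mutants and 3 were higher and 3 lower in double mutants against WT, beside the shares over all genes given above. Between double and PIK3CA mutants, 0 passed with edgeR, DESeq2 or limma, and 0 had an unadjusted p under 0.05.

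Smooth muscle genes are driven by serum response factor (Srf) with myocardin or the related factors Mrtfa and Mrtfb. Srf had mean levels of 70.3 CPM in WT, 79.2 in PIK3CA, 77.2 in HER2 and 75.5 CPM in double mutants and passed in none of the comparisons. Myocd, which encodes myocardin, stayed under 1 CPM in every sample. Mrtfb was at 282, 323 and 321 CPM in WT and 277, 259.9, 362 and 259 CPM in PIK3CA mutant samples, against 159.7, 149, 164 and 183 CPM in HER2 mutant and 182, 130.3, 151, 184 and 202 CPM in double mutant samples. All 9 samples with the HER2 mutation were below all 7 without it. Its log2 fold change was -0.91 between HER2 mutants and WT (SE 0.159, adjusted p 0.00288), -0.86 between double mutants and WT (SE 0.15, adjusted p 0.00166), and -0.77 in double against PIK3CA mutants (SE 0.14, adjusted p 0.0241). The last of these was lost without any 1 PIK3CA mutant replicate (adjusted p up to 0.112).

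Promoter sequence was looked at for motifs of factors of smooth muscle genes. RefSeq windows of the 250 bases before the start (GRCm38.p6) were found for 6 of the 10 genes: Krt5, Krt14, Acta2, Oxtr, Cnn1 and Mylk. On both strands, the exact CArG box bound by serum response factor was in 0 of the 6 and in 1.47% of all 32851 windows, and TATAAA was in 0 and in 12.4%. The MCAT motif CATTCC, bound by TEAD factors, was in 3 of the 6 and in 12.6% of all windows. These 3 matches are shown, as the motif is the 1 searched that was found near these genes. Each is 30 bases, 5′ to 3′ in the direction of the gene, with the motif or its reverse complement in capitals.
Acta2, chr19:34255502-34255531, minus strand: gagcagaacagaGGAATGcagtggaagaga
Mylk, chr16:34784780-34784809, plus strand: tgcagttcagaaCATTCCctggtacgtgca
Krt14, chr11:100206079-100206108, minus strand: tgggcttagaaaGGAATGcgtgtgtctgca
The motif ends 141 bases before the start in Acta2, 153 in Mylk and 61 in Krt14. These are the starts in the RefSeq table, and all 3 sites lie inside the gene spans given above, so that annotated transcripts of each gene begin further upstream. A match describes the letters only and no site of binding, and the absence of a match says nothing about the factor.

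**Figure D4:**
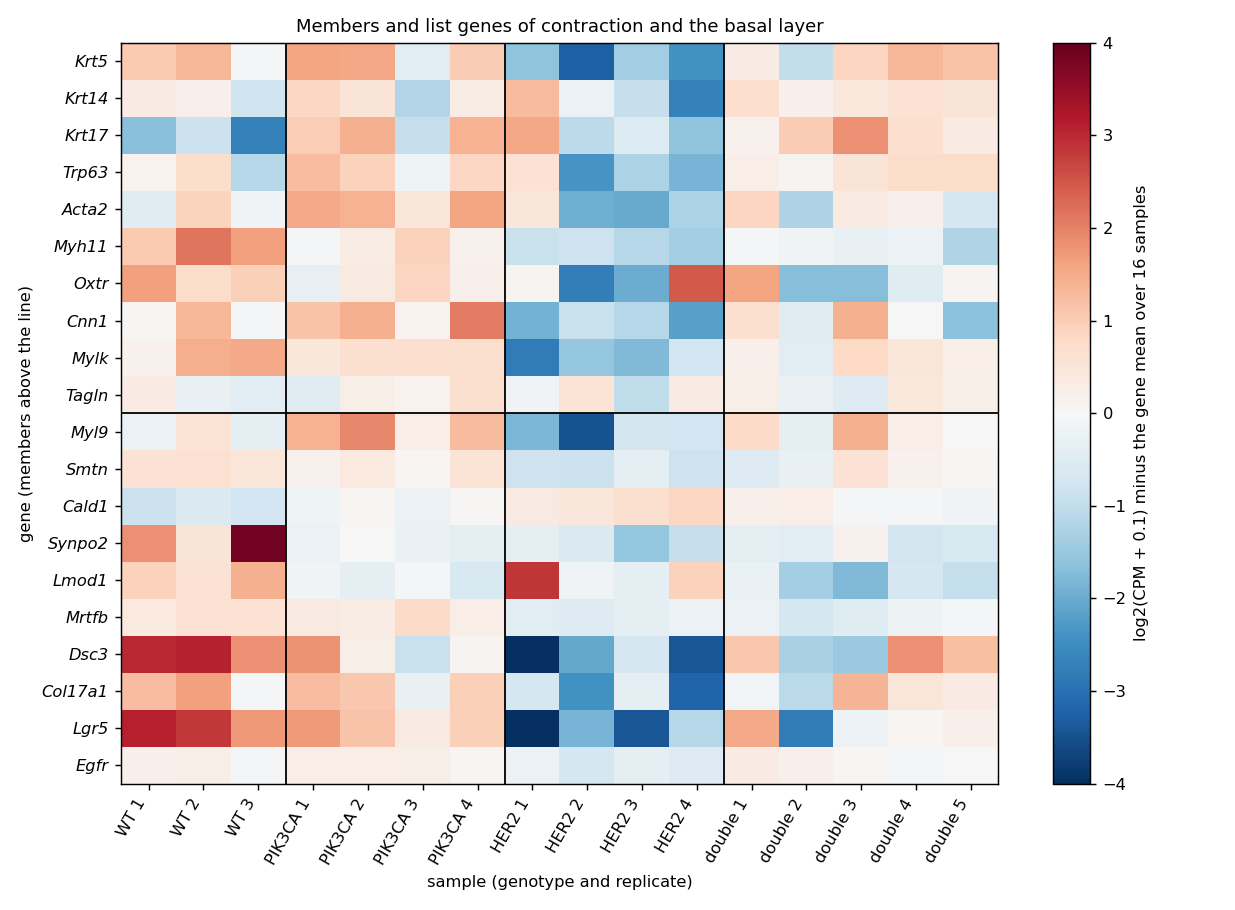
Levels of the 10 genes (above the line) and of 10 genes from the lists (below it) in each sample, as log2(CPM + 0.1) minus the gene's mean over the 16 samples, with colours ending at -4 and 4. The HER2 mutant columns are blue for Krt5, Mylk, Cnn1, Myl9, Dsc3 and Lgr5, while HER2 mutant replicate 1 is red for Krt14, Krt17, Trp63 and Acta2.

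Genes that anchor basal cells to each other and to the basement membrane were given by a list of 15, all tested. In HER2 mutants against WT, 2 were lower and 1 higher, where 5.63% and 4.75% of all genes were. Dsc3, a desmosomal cadherin of basal cells, was at 19.4, 20.3 and 8.46 CPM in WT and 0.0189, 0.482, 1.42 and 0.123 CPM in HER2 mutant samples (log2 fold change -4.98, SE 1.06, adjusted p 0.00925). Col17a1, a hemidesmosome collagen, was at 353, 469 and 141 CPM in WT and 92.4, 27.7, 115 and 15.99 CPM in HER2 mutant samples (-2.36, SE 0.643, adjusted p 0.0304). Lama5, a laminin chain of the basement membrane, was higher in HER2 mutants (1.44, SE 0.412, adjusted p 0.0367), and Lamb3 in double mutants (1.04, SE 0.32, adjusted p 0.0451), the 1 call of the list there, where 5.03% of all genes were higher. Dsc3 did not pass when WT and HER2 mutants were fitted alone (0.0567). Col17a1 was lost in that fit (0.119) and without WT replicate 1 or 2 or HER2 mutant replicate 2 (adjusted p up to 0.0986). Lama5 was lost in that fit (0.0897) and without WT replicate 1 or 3 or HER2 mutant replicate 2 or 3 (adjusted p up to 0.169). Lamb3 was lost without any 1 WT replicate or double mutant replicate 2, 3 or 5 (adjusted p up to 0.216) and with upper-quartile factors (0.0536). Against PIK3CA mutants, 0 of the 15 passed in HER2 mutants with edgeR, 6 had an unadjusted p under 0.05, 5 passed with DESeq2, 2 with limma and 1 with edgeR without HER2 mutant replicate 1.

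Of 20 further basal keratins and regulators, 0 were higher and 2 lower in HER2 mutants against WT, where 4.75% and 5.63% of all genes were. Against PIK3CA mutants 0 were higher and 4 lower (5 without HER2 mutant replicate 1), where 2.21% and 2.2% of all genes were. Lgr5, a receptor for R-spondins found on basal progenitors, was at 72.3, 59.6 and 27.7 CPM in WT and 0.377, 2.197, 0.69 and 3.73 CPM in HER2 mutant samples (log2 fold change -4.93, SE 0.839, adjusted p 0.00261). It was also lower in double mutants than in WT (-2.40, SE 0.703, adjusted p 0.0363), a call lost without any 1 WT replicate or double mutant replicate 3, 4 or 5 (adjusted p up to 0.138). Egfr, the receptor for the growth factor in the medium, was lower in HER2 mutants than in WT (-0.57, SE 0.131, adjusted p 0.013) and PIK3CA mutants (-0.65, SE 0.123, adjusted p 0.00904). The call against WT was lost without WT replicate 1 or 2 (adjusted p up to 0.0608) and with these genotypes fitted alone (0.106). Id4, a regulator of basal cells, was lower than in PIK3CA mutants (-2.31, SE 0.578, adjusted p 0.035), with overlapping samples. The Id4 call was lost without PIK3CA mutant replicate 1, 2 or 4 or HER2 mutant replicate 1, 3 or 4 (adjusted p up to 0.105) and with these genotypes fitted alone (0.0753). Double mutants had 3 of the 20 genes higher than HER2 mutants and 0 lower, where 1.03% and 1.47% of all genes were. This count was 4 higher without HER2 mutant replicate 1. Double mutants were above HER2 mutants in Sfn, an epithelial 14-3-3 protein (1.49, SE 0.343, adjusted p 0.0331), and in Egfr (0.55, SE 0.117, adjusted p 0.0239). With these genotypes fitted alone, neither Sfn (0.128) nor Egfr (0.179) passed. Sfn was lost without HER2 mutant replicate 2 or double mutant replicate 1, 2, 4 or 5 (adjusted p up to 0.07) and Egfr without HER2 mutant replicate 2 or double mutant replicate 1 (adjusted p up to 0.0533). Krt6a, a keratin of stressed epithelium, did not pass against PIK3CA mutants (1.51, SE 1.15, adjusted p 0.518), and HER2 mutant replicate 1 had 84.8 CPM against 0.266 to 23.7 CPM in all other samples.

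Of 15 luminal genes in HER2 mutants, 1 was higher and 0 lower than in WT (1 lower without HER2 mutant replicate 1), where 4.75% and 5.63% of all genes were, and the gene that rose was the keratin Krt7 (log2 fold change 1.403, SE 0.404, adjusted p 0.0381). Against PIK3CA mutants 0 were higher and 2 lower, where 2.21% and 2.2% of all genes were, namely the keratin Krt19 (-1.31, SE 0.312, adjusted p 0.0276) and Foxa1, a factor of hormone-sensing luminal cells (-2.06, SE 0.547, adjusted p 0.045). Double mutants had 3 higher and 1 lower than WT, where 5.03% and 6.72% of all genes were, with Krt7 at 2.18 (adjusted p 0.00272) and Krt8 at 1.14 (adjusted p 0.0127). The Krt7 call in HER2 mutants was lost without any 1 WT replicate or HER2 mutant replicate 2 or 3 (adjusted p up to 0.165) and with these genotypes fitted alone (0.0824). Krt19 was lost without PIK3CA mutant replicate 1, 2 or 4 or HER2 mutant replicate 3 or 4 (adjusted p up to 0.072). Foxa1 was lost without any 1 PIK3CA mutant replicate or HER2 mutant replicate 2, 3 or 4 (adjusted p up to 0.116) and with these genotypes fitted alone (0.0591), and Krt8 without WT replicate 1 or 3 (adjusted p up to 0.0685). Double mutants had 3 of the 15 genes higher than HER2 mutants and 0 lower, where 1.03% and 1.47% of all genes were. This count was 2 higher without HER2 mutant replicate 1. The 3 were Foxa1 (2.37, SE 0.538, adjusted p 0.0322), Krt19 (1.335, SE 0.3, adjusted p 0.0306) and Krt8 (0.96, SE 0.244, adjusted p 0.0493). Leaving out a replicate removed these calls in 5, 6 and 7 of 9 fits. With double and HER2 mutants fitted alone they did not pass (0.152, 0.0662 and 0.238). Per length, the sum of Krt5 and Krt14 divided by the sum of the luminal keratins Krt8 and Krt18 was 0.237 to 0.559 in WT, 0.112 to 0.41 in PIK3CA mutant and 0.0984 to 0.479 in double mutant samples. In HER2 mutant replicates 1 to 4 it was 0.83, 0.189, 0.0994 and 0.0565, so that these samples held both ends of the range over all 16.

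Several markers of other cells were lower in the mutants than in WT. The counts below stand beside 3.03%, 5.63% and 6.72% of all tested genes lower than WT in PIK3CA, HER2 and double mutants. The shares of all tested genes that were higher were 1.49%, 4.75% and 5.03%. Of 11 macrophage genes, 10, 8 and 10 were lower than WT in PIK3CA, HER2 and double mutants, and 9 in HER2 mutants without replicate 1. None of the 8 calls in HER2 mutants held when WT and HER2 mutants were fitted alone (edgeR adjusted p 0.0559 to 0.199). Lyz2, a macrophage lysozyme, averaged 1388 CPM in WT against 2.84, 50.2 and 0.177 CPM. It was not among the 8 genes called in HER2 mutants, whose samples had 142, 58.2, 0.2 and 0.123 CPM. WT samples had 1109, 405 and 2649 CPM of Lyz2. Of 13 fibroblast genes, 0, 2 and 9 were lower than WT in the same order, and for the 0 in PIK3CA mutants 7 had an unadjusted edgeR p under 0.05, 1 passed with DESeq2 and 2 with limma. Of 8 tested pericyte and vascular genes, 1 was higher and 2 lower than WT in PIK3CA mutants, 0 and 1 in HER2 mutants, and 1 and 5 in double mutants. Leaving out a replicate removed the lower calls of Pdgfrb and Abcc9 in PIK3CA mutants in 4 and 6 of 7 fits. The HER2 mutant call, Pdgfrb, was lost without WT replicate 3 (edgeR adjusted p 0.129) and with WT and HER2 mutants fitted alone (0.0925). In double mutants, Cspg4 and Kcnj8 were each lost in 6 of 8 fits that left out a replicate, Abcc9 in 5, Notch3 in 2, Rgs5 in 1 and Pdgfrb in 0. In that list, Kcnj8 and Abcc9, subunits of a potassium channel, were higher in HER2 than in PIK3CA mutants (log2 fold change 4.55 and 4.25, adjusted p 0.00599 and 0.00782), and Notch3 was lower (-1.02, adjusted p 0.00715). Of 5 tested endothelial genes, 1, 1 and 3 were lower than WT in PIK3CA, HER2 and double mutants, and 2 in HER2 mutants without replicate 1. Of 10 tested genes of squamous differentiation, 2 were lower in each mutant genotype and 1 was higher in HER2 mutants, where 0 were without replicate 1. None of 3 tested adipocyte or 5 tested skeletal muscle genes passed with edgeR in any comparison, with at most 2 and 1 at an unadjusted p under 0.05 and at most 1 and 0 by DESeq2, and 0 by limma. The part of these cells in the basal values was not tested.

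Across the 16 samples, the genes whose log2 CPM was most like that of Trp63 among 11743 genes were Phyhip (Pearson r 0.953), Snai2 (0.939), Slc2a4 (0.937), Trim29 (0.935) and Pou2af1 (0.921). Snai2 encodes a transcription factor of basal cells and is also on the list of basal regulators, as are Jag2 and Sfn, named next for Krt14. Those most like Krt14 were Has2 (0.863), Bmp7 (0.832), Mreg (0.83), Jag2 (0.821) and Sfn (0.816), and those most like Acta2 were Cntn2 (0.886), Clec11a (0.866), Pkp3 (0.862), Slc27a3 (0.85) and Mcee (0.84). Among the 10 genes themselves, Trp63 had an r of 0.844 with Krt5, 0.785 with Acta2, 0.749 with Krt14 and 0.68 with Krt17. With genotype means removed, these were 0.735, 0.679, 0.737 and 0.832. Mylk had an r of 0.743 with Krt5, which was -0.02 with genotype means removed, and of 0.036 with Krt14, which became -0.659. All of these are descriptions. The samples of a genotype share that genotype and its labelled tissue source, and differences between genotypes enter the values of r that were taken without removing genotype means.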

How the data were processed

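The RNeasy mini plus kit gave the RNA and the libraries were of the SMARTER mRNA-Seq type, per the labels' protocols. The submitters' processing notes name the build mm10 and the tools bcl2fastq 2.20, STAR 2.0.4b, Subread featureCounts 1.4.5 and DESeq2 1.33.5. Strandedness, annotation and treatment of reads shared between genes are not given in the sources used here. The authors deposited whole-number read counts per gene, and a table of normalized signal values that equals the counts divided by median-of-ratios size factors (largest relative difference 5.49e-10). After 287 repeated rows with identical values were dropped, 55487 genes were left.

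The counts were tested with edgeR 4.0.16 in R 4.3.3 (filterByExpr, TMM, quasi-likelihood F test, two-sided) in a single fit of all 16 samples by genotype, with Benjamini-Hochberg adjustment over 24252 genes. SE is the absolute log2 fold change over the square root of F, and 2 was the prior count for log2 CPM. Alternatives were RLE and upper-quartile factors, DESeq2 1.42.0, no filter on low counts, only the genotypes compared, the replicate number as a block, limma 3.58.1 on log2 of the deposited normalized values plus 1 or 0.5, and each replicate left out. The tests were checked on simulated data. Positions and exon lengths are from GENCODE M21 (GRCm38).

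The members, lists and tests were chosen with earlier results of these data known. Named were the 10 genes, up to 3 called genes per list and comparison with the largest change, and the 5 genes most like Krt14, Trp63 and Acta2 with a mean log2 CPM of at least 1. Srf, Myocd, Mrtfa and Krt6a or other list genes given outside that rule were chosen after their values were seen. Not every gene that met the rule is printed, and Krt5 to Krt14 ratios were likewise added after values were seen. Some items on the gene lists are not reported here.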

Additional observations from a re-analysis of the deposited data

Results flagged for a closer look

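Within a genotype, a sample was singled out where its gap to the nearest other sample was large for the group's whole range (Dixon's 95% criterion). Of 30 sets of gene and mutant genotype, 6 were singled out. The criterion is set for about 1 in 20 independent sets. These sets share samples, so their share cannot be compared with that figure. HER2 mutant replicate 1 accounted for 3 of the 6, at 105 CPM of Krt17, 165 CPM of Trp63 and 98.1 CPM of Acta2, each above the other HER2 mutant samples. The others were 1.07 CPM of Myh11 in double mutant replicate 5, below the rest, 136 CPM of Oxtr in double mutant replicate 1, above the rest, and 20.1 CPM of Mylk in PIK3CA mutant replicate 1, below 3 samples at 23.0 to 23.1 CPM.

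The interaction test of the HER2 change between WT and PIK3CA mutant backgrounds passed the threshold for Mylk (2.45, edgeR adjusted p 0.039) and Myh11 (2.06, edgeR adjusted p 0.0369). The calls were lost in 11 and 9 of 16 fits that left a replicate out. WT, the only genotype labelled as normal breast, enters this test, so genotype and tissue source cannot be told apart in it.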

How the results depend on the processing

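Of 16 calls over 70 pairs of gene and comparison, 9 held in every fit that left out a replicate, 9 under every other alternative and 7 under both, and 0 reversed. The count of called genes moved in PIK3CA mutants against WT from 1 to 2 with DESeq2, with no filter on low counts and when only these genotypes were fitted, and in double against HER2 mutants from 2 to 0 when only these genotypes were fitted. It was 3 with DESeq2 for double against HER2 mutants (Cnn1 added) and for the interaction (Krt5 added), 6 with DESeq2 and with limma for HER2 against PIK3CA mutants (Trp63 added), and 3 for HER2 mutants against WT with upper-quartile factors. Leaving out a replicate gave 0 to 2 for PIK3CA, 3 to 5 for HER2 and 1 to 2 for double mutants against WT, 2 to 3 for double against HER2, 0 to 0 for double against PIK3CA, 3 to 6 for HER2 against PIK3CA mutants and 0 to 2 for the interaction. Fits of only the genotypes compared also changed the calls over all genes. PIK3CA mutants against WT had 1942 higher and 2194 lower, where the fit of all samples had 362 and 734. Double against HER2 mutants had 13 and 24, where the fit of all samples had 249 and 357. HER2 mutants against WT had 219 and 322, where the fit of all samples had 1153 and 1365.

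Same-numbered samples correlated by 0.0711 to 0.273 between HER2 and double mutants and by at most 0.149 between other genotypes, where some pairs were negative. Not every sample correlated best with its own number, and the numbers were not taken to pair samples. With the replicate block the count was 1 for double mutants against WT (Krt17 lost, edgeR adjusted p 0.0508), 1 for double against HER2 mutants (Krt5 lost, 0.0929), 3 for HER2 mutants against WT (Cnn1 lost, 0.0582), 4 for HER2 against PIK3CA mutants (Acta2 lost, 0.0505) and 0 for the interaction (Myh11 0.0603, Mylk 0.0621). The block also gave estimates of the other sign, none called, of 0.25 for Krt17 between double and PIK3CA mutants, 0.32 for the Acta2 interaction, -0.92 for Oxtr between HER2 and PIK3CA mutants and 0.10 for Cnn1 between double mutants and WT. For Tagln it gave -0.0654 in HER2 mutants and -0.0656 in double mutants against WT and -0.000149 between them.

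Other changes of sign were all of uncalled estimates. Krt14 in HER2 mutants against WT was 0.0164 with upper-quartile factors and 0.0152 when only these genotypes were fitted, and Tagln between double and HER2 mutants was -0.051 with upper-quartile factors. With limma at a pseudocount of 1 and of 0.5, Krt17 between double and PIK3CA mutants was 0.0797 and 0.0798, Oxtr between double and HER2 mutants 0.10 and 0.10, and Oxtr between HER2 and PIK3CA mutants -0.83 and -0.83. When a replicate was left out, estimates spanned 0 for Krt5 against WT in PIK3CA (-0.0778 to 0.53) and double mutants (-0.46 to 0.14). They did so for Krt14 in HER2 mutants against WT (-0.98 to 0.33), double against PIK3CA (-0.0888 to 0.43), HER2 against PIK3CA (-1.27 to 0.0421) and the interaction (-0.15 to 1.16), and for Krt17 in double against PIK3CA mutants (-0.38 to 0.15). Acta2 spanned -0.41 to 0.38 in double mutants against WT and -0.72 to 0.69 in the interaction, and Cnn1 -0.75 to 0.34 in double mutants against WT. Oxtr spanned -2.19 to 0.0196 in HER2 mutants against WT, -1.54 to 1.13 in double against HER2, -1.08 to 0.00631 in double against PIK3CA, -1.37 to 0.85 in HER2 against PIK3CA mutants and -0.72 to 1.96 in the interaction. Tagln spanned -0.0935 to 0.45 in HER2 mutants against WT, -0.23 to 0.26 in double against HER2, -0.32 to 0.0767 in double against PIK3CA and -0.39 to 0.10 in HER2 against PIK3CA mutants. The cause of these shifts was not tested. Upper-quartile factors moved the median of all genes between HER2 and PIK3CA mutants to 0.12. Counts were low for Tagln, at 18 to 82 per sample.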
